A study of Mus musculus with 8 samples.

Results

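Chemokines and chemokine receptors were read in the lungs of ozone- and air-breathing C3H mice as every probe set whose single annotated gene symbol begins with Ccl, Cxcl, Cx3cl or Xcl, or is Ccr, Cxcr, Cx3cr, Xcr or Ackr followed by a number. These were 47 of the 12488 probe sets of the array, for 42 of its 8251 singly named genes: 29 probe sets for 24 chemokines and 18 for 18 receptors. Chemokines are small secreted proteins that are held as gradients on cell surfaces and matrix, and they draw leukocytes by binding G protein-coupled receptors; the atypical receptors, whose symbols start with Ackr, bind the same ligands but mainly clear or transport them. In the lung, epithelium, macrophages and endothelium make them after injury: CXC ligands that bind Cxcr2 are known for drawing neutrophils, CC ligands for drawing monocytes, eosinophils and lymphocytes, and ozone is a known cause of such inflammation.

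Total lung RNA had been hybridised to Affymetrix oligonucleotide arrays, 2 for each of 4 groups. The groups were C3H-HeJ mice in filtered air, C3H-HeJ mice in ozone, C3H-HeOuJ mice in filtered air and C3H-HeOuJ mice in ozone, called HeJ and HeOuJ from here on. An exposure of 72 h is stated for both HeOuJ groups and not for HeJ, so the strains may differ in exposure time; ozone concentration, age and sex are not given in the sources used here. As background, HeJ mice carry a missense mutation of the endotoxin receptor gene Tlr4 and HeOuJ mice do not. The arrays of a group are lettered 1a and 1b, and the labels do not say whether separate animals stand behind the letters. The p-values therefore measure the spread between arrays alone, which may be technical. In whole lung, fewer cells of a type and less RNA per cell cannot be told apart.

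The arrays had been scaled before deposit and their median intensities lay between 351 and 386. Both HeOuJ ozone arrays stood apart from the other 6. Their ratio of 5' to 3' actin signal, a sign of RNA integrity and labelling, was 0.766 and 0.756 against 0.432 to 0.603 elsewhere, their Gapdh ratio 1.34 and 1.18 against 0.775 to 1.06, and their intensities correlated less with each other (rank correlation 0.931) than those of the other pairs (0.952 to 0.961). All 11 lung epithelial markers on the array were bright enough to test, with a summed intensity of 141904 to 194317 on the other 6 arrays and 220757 to 231899 on the HeOuJ ozone arrays. Every comparison that uses the HeOuJ ozone group rests on those arrays, and the part of these differences in it was not tested. A fit that carried the 5'/3' ratios of actin and Gapdh as a covariate (the 5'/3' covariate) moved some members' estimates in these comparisons by over 1.5 times, for example the strain difference in ozone of Ccr2 from -1.15 to -0.17 (SE 0.88) and of Ccl5 from 0.98 to 2.01 (SE 0.59).

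Fewer members than other probe sets were bright on every array, but about as many could be tested. A floor of 69.63, the 20th percentile of all intensities, was set before taking log2, and 25 of 47 members (53.2%) lay above it on all 8 arrays, against 66.6% of all 12422 probe sets. The share was 14 of 29 for chemokines (48.3%) and 11 of 18 for receptors (61.1%). A probe set above the floor on at least 2 arrays was tested, which kept 43 members of 38 genes (91.5%, against 88.2% of all probe sets). Of these, 8 of 43 passed on 2 or 3 arrays only and 10 on 4 to 7, against 827 and 1852 of all 10953 tested. The other 4 were too dim: Ackr1, which carries chemokines across venules, and Ccr8, a receptor of T helper cells, were never above the floor, and Ccl4, a macrophage ligand, and Cxcl9, an interferon-induced T cell attractant, exceeded it on 1 array each.

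No chemokine or receptor passed the threshold, an adjusted p of 0.05 in limma over the 10953 probe sets tested, in any of the 7 comparisons. In HeJ, ozone against air called 0% of all probe sets, and 5 of 43 members (11.6%) had an unadjusted p under 0.05 against 4.35% of all. In HeOuJ, ozone against air called 0.456% of all probe sets and none of the 43 members, and 6 members (14.0%) had an unadjusted p under 0.05 against 15.5% of all. The difference between the ozone effects of the strains (the interaction) called 0% of all, with 2 members (4.65%) under an unadjusted 0.05 against 11.4% of all. The mean of both ozone effects called 0.0183% of all and no member, with 6 members (14.0%) under an unadjusted 0.05 against 9.25%.

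Between the strains the picture was similar. HeOuJ against HeJ in air called 0.0456% of all probe sets and no member, with 3 members (6.98%) under an unadjusted 0.05 against 5.71% of all. In ozone the strain difference called 0.977% of all and no member, with 10 members (23.3%) under an unadjusted 0.05 against 18%. The mean strain difference over both exposures called 0.155% of all and no member, with 8 members (18.6%) under an unadjusted 0.05 against 13.0%. The median standard error of a log2 difference was 0.30 for 2 arrays against 2, 0.43 for the interaction and 0.21 for the means.

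The members' median log2 ozone effect was -0.08 in HeJ, against 0.01 for all probe sets tested, and -0.14 in HeOuJ, against 0.02. In HeJ 27 of 43 members (62.8%) had a lower estimate in ozone against 48.8% of all, and in HeOuJ 27 of 43 against 47.3% of all. For the strain difference the members' median lay near that of all probe sets: -0.04 against 0.01 in air, 0.01 against 0.02 in ozone, and 0.03 against 0.02 for the mean of exposures.

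**Figure D1:**
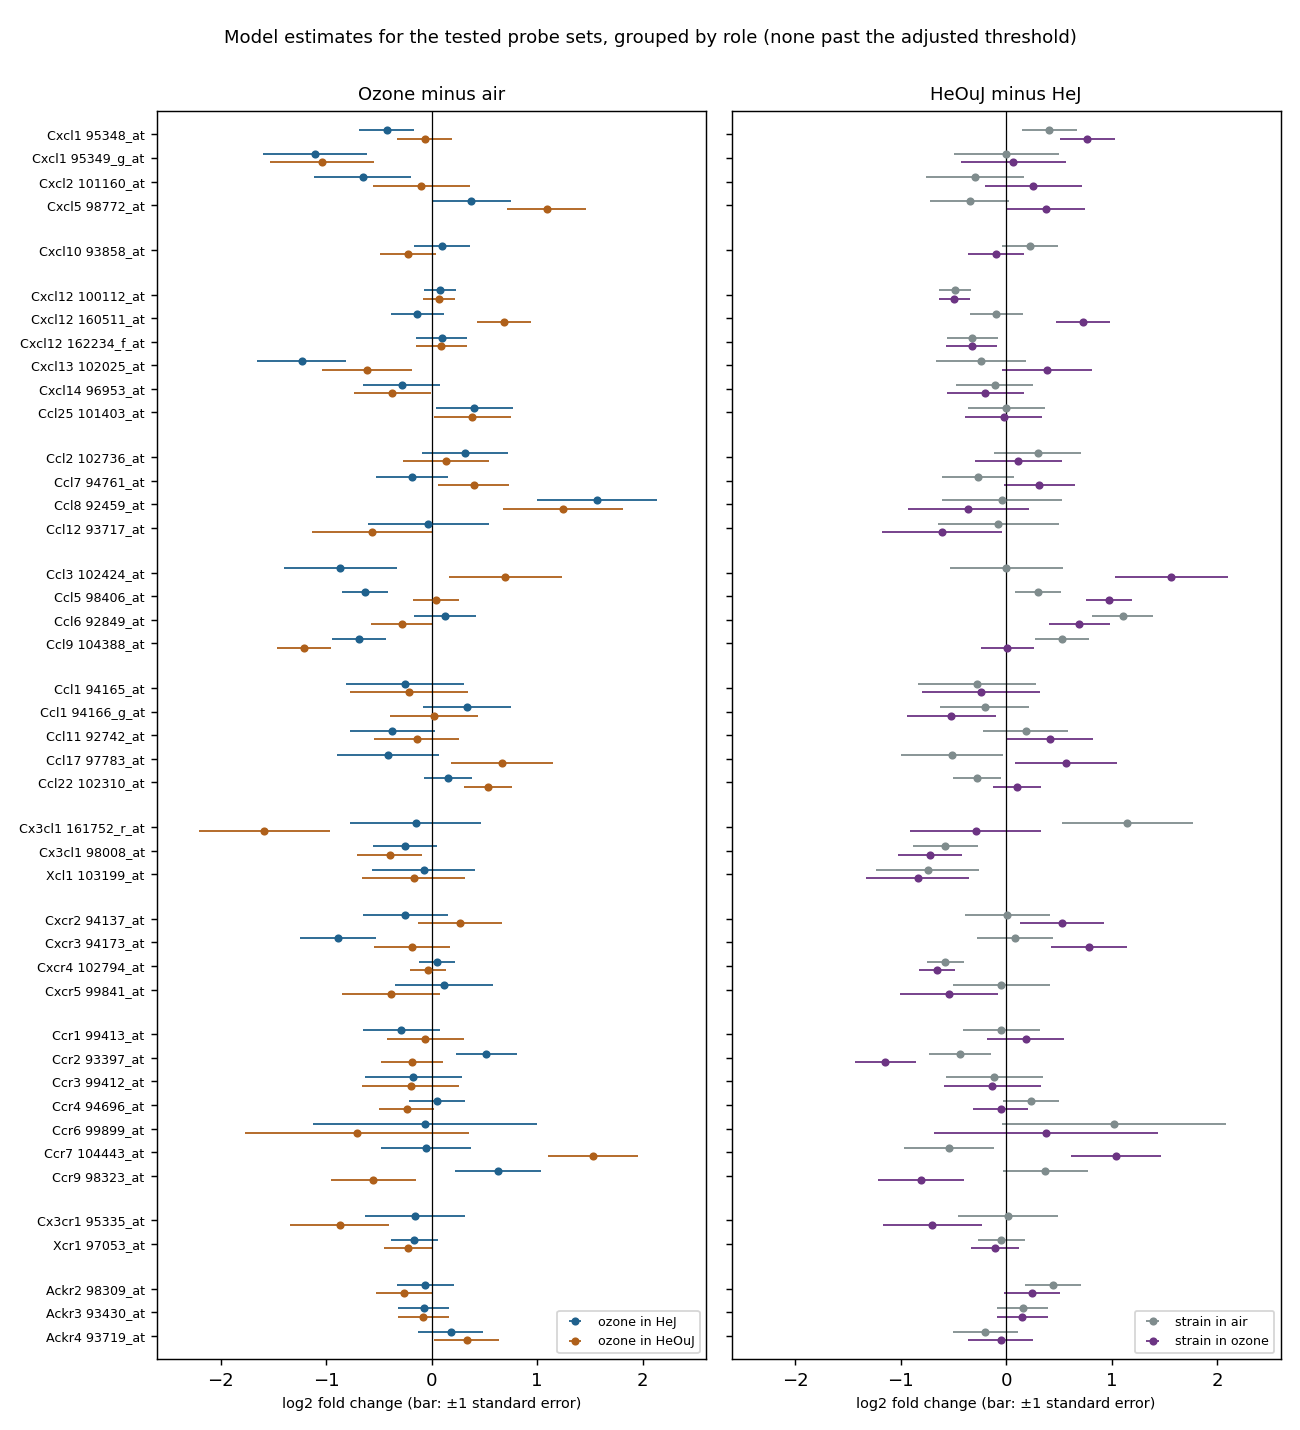
Log2 differences of the 43 tested member probe sets, grouped by role from neutrophil attractants at the top to atypical receptors at the bottom: ozone minus air in each strain on the left, HeOuJ minus HeJ at each exposure on the right, with bars of 1 SE. Most bars reach or come near 0, the widest are those of Ccr6, and no probe set passed the adjusted threshold of 0.05.

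A few members separated all 4 arrays of one condition from all 4 of the other. By exposure, Ccl8 and Cxcl5 lay higher on every ozone array than on any air array (2 of 43 members, against 2.01% of all probe sets), and Ccl9, Cxcl13 and 1 of the Cxcl1 probe sets lay lower (3 of 43, against 1.22% of all). By strain, Ccl6 and the other Cxcl1 probe set were higher on every HeOuJ array (2 of 43, against 2.70%), and Cxcr4, Ccr2 and 1 of the Cxcl12 probe sets were lower (3 of 43, against 2.0%). These are counts of separated arrays and not calls: none of these 10 differences passed the adjusted threshold.

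**Figure D2:**
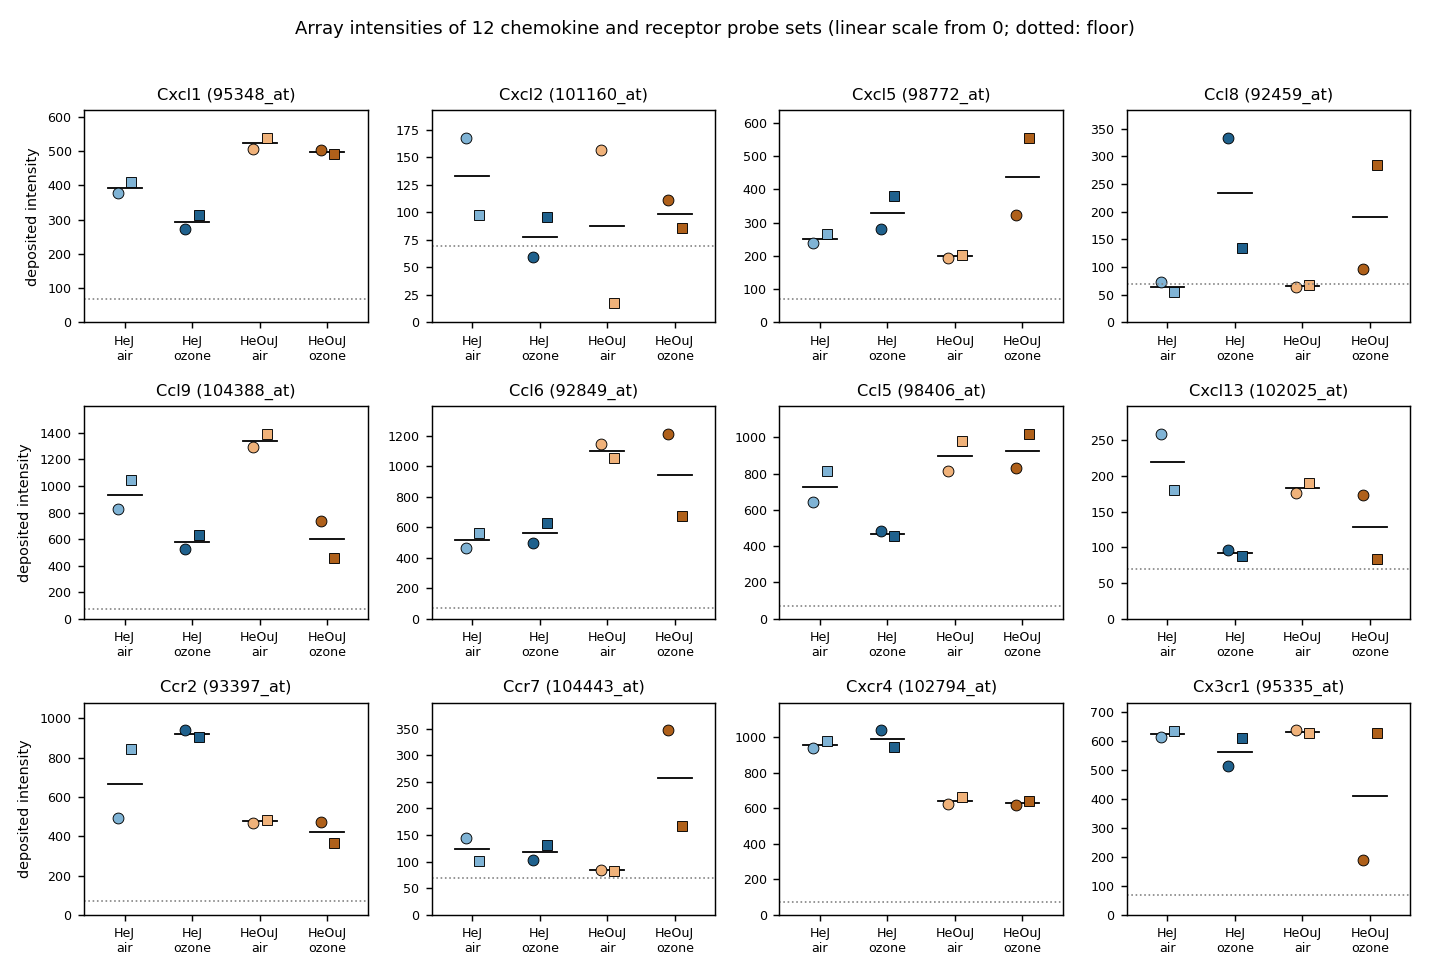
Deposited intensity of 12 members on each of the 8 arrays, with 1 point per array (circles 1a, squares 1b), a bar at each group mean and a dotted line at the floor of 69.63. Ccl8 and Cxcl5 are higher and Ccl9 lower on the ozone arrays, and Cxcr4 lower and Ccl6 higher on the HeOuJ arrays.

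The neutrophil attractants Cxcl1, Cxcl2 and Cxcl5, ligands of Cxcr2, did not move as one. Cxcl1 and Cxcl2 neighbour each other on chromosome 5 and are known targets of NF-kappa B. Their sequences from 250 bases upstream to the transcription start are shown because they hold the same stretch that matches the kappa B consensus on both strands, in capitals, at chr5:90890995-90891244 (Cxcl1, plus strand) and chr5:90903649-90903898 (Cxcl2, plus strand), RefSeq GRCm38.p6:
Cxcl1: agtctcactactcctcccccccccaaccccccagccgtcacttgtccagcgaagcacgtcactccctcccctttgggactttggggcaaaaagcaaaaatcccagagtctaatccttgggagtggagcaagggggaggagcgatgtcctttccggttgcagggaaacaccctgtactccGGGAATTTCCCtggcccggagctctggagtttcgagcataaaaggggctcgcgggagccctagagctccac
Cxcl2: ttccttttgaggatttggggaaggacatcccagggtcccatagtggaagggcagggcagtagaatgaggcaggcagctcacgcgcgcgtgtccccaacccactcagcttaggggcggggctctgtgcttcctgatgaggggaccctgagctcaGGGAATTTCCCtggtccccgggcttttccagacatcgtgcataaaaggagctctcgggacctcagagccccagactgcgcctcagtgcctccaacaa

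The stretch ends 60 bases before the Cxcl1 start and 86 bases before the Cxcl2 start. Over the 34 member genes with a RefSeq window, 9 of 36 windows (25%) held a kappa B match on either strand, against 7.25% of all 32851 windows of that length: those of Ackr2, Ccl1, Ccl9, Ccr1, Ccr3, Ccr6, Cxcl1, Cxcl10 and Cxcl2. The interferon response core TTTCNNTTTC was found in 5.56% of member windows against 2.98% of all, in Cxcl10 and Cxcl14, and the AP-1 motif TGANTCA in 11.1% against 6.75%, in Ccl9, Ccr3, Ccr4 and Cxcl10. A match is a run of letters and not evidence of binding.

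Cxcl5, which lung epithelium makes, had an intensity of 238 and 266 in HeJ air, 281 and 379 in HeJ ozone, 194 and 203 in HeOuJ air, and 323 and 555 in HeOuJ ozone. Each ozone array lay above each air array, and the HeOuJ ozone arrays differed from each other by more than the other pairs did. The log2 ozone effect in HeOuJ was 1.09 (SE 0.37), 2.13-fold, with an adjusted p of 0.222 in limma, and it was 0.70 without HeOuJ ozone array 1b and 1.77 (SE 0.79) with a 5'/3' covariate. In HeJ it was 0.38 (SE 0.37).

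Cxcl1, a main neutrophil attractant of the mouse, was read by a pair of probe sets that gave different answers. Probe set 95348_at gave 376 and 411 in HeJ air, 272.5 and 314 in HeJ ozone, 506 and 538.5 in HeOuJ air, and 504 and 493 in HeOuJ ozone. Every HeOuJ array lay above every HeJ array, a mean log2 strain difference of 0.59 (SE 0.18, adjusted p 0.236 in limma), and within HeOuJ the ozone arrays lay just below the air arrays (log2 -0.07, SE 0.26). Probe set 95349_g_at gave 237 and 212, 84.3 and 129, 279 and 181, and 37.7 and 171 in the same order, so each ozone array lay below each air array. Its mean log2 ozone effect was -1.07 (SE 0.35, adjusted p 0.416), and it shrank to -0.09 with the floor at the 40th percentile, which lies above most of these values.

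Cxcl2 was near the floor, at 167 and 97.9 in HeJ air, 59.8 and 95.5 in HeJ ozone, 157 and 17.8 in HeOuJ air, and 111 and 85.6 in HeOuJ ozone. In HeJ both ozone arrays lay below both air arrays and in HeOuJ they overlapped, with log2 ozone effects of -0.65 in HeJ and -0.10 in HeOuJ (SE 0.46 each). Its receptor Cxcr2, carried by neutrophils, ranged from 24.7 to 145, and the groups of each comparison overlapped. The neutrophil markers beside these values showed 9 of 13 tested genes higher and 4 lower in HeOuJ ozone than in HeOuJ air, with a median log2 difference of 0.14 and a summed intensity of 14654 to 15282 in air and 14349 to 16199 in ozone. The markers of smallest p there went opposite ways, and neither was called. S100a8 was lower (log2 -0.72, SE 0.16, adjusted p 0.0938 in limma) and Lcn2 higher (0.77, SE 0.17, adjusted p 0.0939). Between strains in ozone 7 of the 13 neutrophil markers were higher and 6 lower in HeOuJ (median 0.00). Of these 1 was called, Lcn2, an iron-binding protein of neutrophils and also of epithelium. It was higher in HeOuJ in ozone (log2 1.48, SE 0.17, adjusted p 0.0236 in limma) and over both exposures (0.94, SE 0.12, adjusted p 0.0304). Of 11 tested epithelial markers 7 were higher and 4 lower in HeOuJ ozone than in HeOuJ air (median 0.27), and the keratins Krt18 (1.67, SE 0.17, adjusted p 0.0136) and Krt8 (0.99, SE 0.15, adjusted p 0.0464) were called higher. The part of neutrophil and epithelial markers in the Cxcl5 and Cxcl1 values was not tested.

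Among the monocyte attractants, Ccl8 stood out and the other members were close to background. Ccl8, an attractant of monocytes and T cells, read 73.6 and 55.8 in HeJ air, 333 and 135 in HeJ ozone, 64 and 68.2 in HeOuJ air, and 96.1 and 284 in HeOuJ ozone. All 4 ozone arrays lay above all 4 air arrays, but the ozone arrays of each strain differed by a wide margin. The mean log2 ozone effect was 1.41 (SE 0.41, adjusted p 0.366 in limma), and the effect in HeJ was 1.57 (SE 0.57, adjusted p 1), falling to 0.92 without HeJ ozone array 1a. In HeOuJ the log2 ozone effect was 1.25 (SE 0.57, adjusted p 0.339 in limma), with a 95% interval of -0.06 to 2.55. Both HeOuJ air arrays were at or below the floor, so the fold between these arrays has a lower bound of 2.37, apart from their spread. That bound rests on HeOuJ ozone array 1b: without it the bound was 1.38-fold, and without array 1a 4.08-fold. Setting the floor at the 40th percentile left a mean effect of 0.22.

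Ccl2, the best known monocyte attractant, ranged from 27.8 to 132 with no group wholly apart, and its log2 ozone effects were 0.32 in HeJ and 0.14 in HeOuJ (SE 0.41 each). Ccl7 ranged from 5.7 to 121, with log2 ozone effects of -0.18 and 0.40 (SE 0.34 each). Ccl12 ranged from 33.6 to 168, and in HeJ and in HeOuJ air the arrays of a group differed more from each other than the group means did. Ccr2, the receptor of Ccl2, Ccl7 and Ccl12 on monocytes, is described with the receptors.

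The macrophage inflammatory CC ligands Ccl3, Ccl5, Ccl6 and Ccl9 neighbour each other in a run on chromosome 11 together with Ccl4, which was too dim. Their median log2 ozone effect was -0.66 in HeJ and -0.12 in HeOuJ. All 4 had a higher estimate in HeOuJ than in HeJ, with a median log2 difference of 0.42 in air, 0.84 in ozone and 0.71 over both exposures, although in air Ccl3 and in ozone Ccl9 were near 0. The upstream sequences of Ccl9 and Ccl6 are shown as those of neighbours in this run: chr11:83578637-83578886 for Ccl9 and chr11:83593088-83593337 for Ccl6, both on the minus strand and written 5′ to 3′ in the sense of the gene. The part of these sequences in the values of the genes was not tested. Capitals mark the kappa B match of Ccl9, 25 bases before its start. Ccl6 has none in its window:
Ccl9: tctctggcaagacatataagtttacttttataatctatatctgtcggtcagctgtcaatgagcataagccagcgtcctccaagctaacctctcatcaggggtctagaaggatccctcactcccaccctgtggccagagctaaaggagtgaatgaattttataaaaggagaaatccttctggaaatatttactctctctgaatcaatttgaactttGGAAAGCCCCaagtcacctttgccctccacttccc
Ccl6: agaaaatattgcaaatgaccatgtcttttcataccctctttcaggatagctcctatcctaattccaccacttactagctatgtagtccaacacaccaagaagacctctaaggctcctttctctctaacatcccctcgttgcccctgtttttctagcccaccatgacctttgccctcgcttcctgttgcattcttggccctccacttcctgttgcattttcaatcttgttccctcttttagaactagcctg

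Ccl9, made by macrophages and drawing cells with Ccr1, read 826 and 1042 in HeJ air, 528 and 629.5 in HeJ ozone, 1295 and 1391 in HeOuJ air, and 734 and 461 in HeOuJ ozone. Each ozone array lay below each air array. The log2 ozone effect was -0.69 (SE 0.26, adjusted p 1) in HeJ and -1.21 (SE 0.26, unadjusted p 0.00122, adjusted p 0.0821 in limma) in HeOuJ, with a mean of -0.95 (SE 0.18, adjusted p 0.227). The difference of the effects between strains was -0.52 (SE 0.36). The ozone effect in HeOuJ passed the threshold (adjusted p 0.036 in limma) when only the brighter probe sets were tested. In air, HeOuJ read higher than HeJ by a log2 difference of 0.53 (SE 0.26, adjusted p 0.91 in limma), whereas in ozone the difference was 0.01 (SE 0.26).

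Ccl6, a ligand of macrophages in the lung, read 466 and 562 in HeJ air, 496 and 628 in HeJ ozone, 1148 and 1056 in HeOuJ air, and 1211 and 675 in HeOuJ ozone. Each HeOuJ array lay above each HeJ array, and ozone array 1b of HeOuJ was the lowest of its strain. The log2 strain difference was 1.11 in air (SE 0.29, adjusted p 0.63 in limma) and 0.69 in ozone (SE 0.29, adjusted p 0.257), 0.90 on average (SE 0.21, adjusted p 0.138). The estimate in air does not use the HeOuJ ozone arrays, and a fit without them could change only its spread (adjusted p 0.37 in limma). Ozone against air gave 0.13 in HeJ and -0.28 in HeOuJ (SE 0.29 each).

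Ccl5, a ligand of T cells and monocytes, read 642 and 814 in HeJ air, 482 and 454 in HeJ ozone, 813 and 979 in HeOuJ air, and 833 and 1018 in HeOuJ ozone. The HeJ ozone arrays were the lowest and HeJ air array 1b reached into the HeOuJ range. The log2 ozone effect was -0.63 (SE 0.22, adjusted p 0.996 in limma) in HeJ and 0.04 (SE 0.22) in HeOuJ, a difference of 0.67 (SE 0.31, adjusted p 0.457). In ozone, HeOuJ exceeded HeJ by 0.98 (SE 0.22, unadjusted p 0.00173, adjusted p 0.0724 in limma), the smallest adjusted p of any member in any comparison, and by 2.01 (SE 0.59, adjusted p 0.983) with a 5'/3' covariate. It passed (adjusted p 0.0349) when only the brighter probe sets were tested. Averaged over both exposures, the log2 strain difference of Ccl5 was 0.64 (SE 0.15, adjusted p 0.151 in limma).

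Ccl3, made by activated macrophages, read 195 and 179 in HeJ air, 83.1 and 126 in HeJ ozone, 286 and 122 in HeOuJ air, and 442 and 207 in HeOuJ ozone. Both HeOuJ ozone arrays lay above both HeJ ozone arrays, and the HeOuJ groups overlapped. The strain difference in ozone was 1.56 (SE 0.54, adjusted p 0.181), and the interaction was 1.56 (SE 0.76, adjusted p 0.489), the latter 0.95 without HeOuJ air array 1b, 1.02 without HeOuJ ozone array 1a and 0.31 with the floor at the 40th percentile.

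Macrophage and monocyte markers were set beside these ligands. In HeJ 10 of 12 tested markers were lower in ozone than in air (median -0.21), and in HeOuJ 6 were higher and 6 lower, with 1 of them, Chil3, called lower (log2 -1.19, SE 0.18, adjusted p 0.0464 in limma). Chil3 is a secreted chitinase-like protein of alveolar macrophages. Between strains in ozone 7 markers were higher and 5 lower, with Cd68, a lysosomal protein of macrophages, called higher in HeOuJ (1.29, SE 0.18, adjusted p 0.0329), as it was over both exposures (0.94, adjusted p 0.0322). The summed marker intensity was 39026 to 44956 in HeJ air, 34601 to 40159 in HeJ ozone, 41524 to 50578 in HeOuJ air and 50309 to 56862 in HeOuJ ozone; the marker Marco was too dim. The part of these markers in the ligand values was not tested.

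Of the interferon-induced CXC ligands only Cxcl10 could be tested. It read 16.5 and 11.3 in HeJ air, 79.9 and 41.2 in HeJ ozone, 54.4 and 95.3 in HeOuJ air, and 20.2 and 39.9 in HeOuJ ozone. It was above the floor on 1 HeJ ozone and 1 HeOuJ air array, so no ozone effect could be read, and the fitted values of 0.10 in HeJ and -0.23 in HeOuJ (SE 0.27 each) mostly compare the floor with itself. Cxcr3, the receptor of Cxcl9 and Cxcl10 on T cells, read 406 and 374 in HeJ air, 187 and 238 in HeJ ozone, 536 and 318 in HeOuJ air, and 414 and 319 in HeOuJ ozone. The HeJ ozone arrays were the lowest, a log2 ozone effect of -0.89 in HeJ (SE 0.36, adjusted p 1 in limma) against -0.19 (SE 0.36) in HeOuJ.

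None of the eosinophil and T helper ligands had an adjusted p near the threshold. Ccl11, an eosinophil attractant, ranged from 8 to 128, and both HeJ ozone arrays were below the floor. Ccl17, a T helper ligand, ranged from 46 to 175 and was highest on HeOuJ ozone array 1a. Ccl22, which dendritic cells and macrophages make for Ccr4, was brighter: 564 and 813.5 in HeJ air, 718 and 792 in HeJ ozone, 539 and 581 in HeOuJ air, and 843.5 and 777 in HeOuJ ozone. Its log2 ozone effect was 0.53 in HeOuJ (SE 0.23, adjusted p 0.309) and 0.15 in HeJ (SE 0.23). The Ccl1 probe sets, for a ligand of Ccr8, gave log2 ozone effects of -0.25 (SE 0.56) and 0.34 (SE 0.42) in HeJ and of -0.21 and 0.02 in HeOuJ.

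The homeostatic ligands place leukocytes in tissue at rest. Cxcl13, which gathers B cells through Cxcr5, read 259 and 181 in HeJ air, 95.8 and 88.5 in HeJ ozone, 177 and 191 in HeOuJ air, and 174 and 83.3 in HeOuJ ozone. Every ozone array lay below every air array, by a narrow margin for HeOuJ ozone array 1a. The log2 ozone effect was -1.23 (SE 0.43, adjusted p 0.996 in limma) in HeJ and -0.61 (SE 0.43) in HeOuJ, with a mean of -0.92 (SE 0.30, adjusted p 0.416). Beside it, 8 of 10 tested B lymphocyte markers were lower in HeJ ozone (median -0.53), with a summed intensity of 5648 to 5944 in HeJ air and 4506 to 4561 in HeJ ozone, and 7 of 10 were higher in HeOuJ ozone than in HeOuJ air (median 0.08), with 4650 to 5198 in air and 5163 to 6013 in ozone. None of these markers was called, and their part in the Cxcl13 values was not tested. Cxcr5 ranged from 43.5 to 148; both HeOuJ ozone arrays, at 50.7 and 59.7, were below the floor.

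Cxcl14, made by epithelium and fibroblasts, ranged from 196 to 384; both HeJ ozone arrays lay below both HeJ air arrays, and the HeOuJ groups overlapped, with log2 ozone effects of -0.28 and -0.37 (SE 0.36 each). Ccl25, a ligand of Ccr9, exceeded the floor on 2 arrays, 1 HeJ ozone and 1 HeOuJ ozone array, and its fitted effects of 0.41 and 0.38 (SE 0.37 each) rest on those values. Ccr9 was above the floor on the HeJ ozone arrays, at 102 and 146, and below it on the HeOuJ ozone arrays, at 19.3 and 60.9. The air arrays lay on both sides of the floor, at 89.2 and 62 in HeJ and 149 and 24.4 in HeOuJ. The log2 strain difference of Ccr9 in ozone was -0.81 (SE 0.40, adjusted p 0.342 in limma).

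Cxcl12, which endothelium and stroma make to retain leukocytes and stem cells, and its receptor Cxcr4 are given together. Cxcr4 and the brightest Cxcl12 probe set read lower on every HeOuJ array, without passing the threshold, while the other Cxcl12 probe sets did not separate all 4 arrays of one strain from all 4 of the other. Their upstream sequences, RefSeq GRCm38.p6 chr6:117168285-117168534 (Cxcl12, plus strand) and chr1:128592300-128592549 (Cxcr4, minus strand, in the sense of the gene), are shown as those of this ligand and receptor; like most member windows, they held no kappa B match, and neither held an interferon response core or AP-1 match:
Cxcl12: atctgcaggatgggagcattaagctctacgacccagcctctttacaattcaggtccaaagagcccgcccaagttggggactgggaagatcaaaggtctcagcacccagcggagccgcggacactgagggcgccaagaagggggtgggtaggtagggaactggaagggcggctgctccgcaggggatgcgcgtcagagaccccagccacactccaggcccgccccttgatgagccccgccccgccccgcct
Cxcr4: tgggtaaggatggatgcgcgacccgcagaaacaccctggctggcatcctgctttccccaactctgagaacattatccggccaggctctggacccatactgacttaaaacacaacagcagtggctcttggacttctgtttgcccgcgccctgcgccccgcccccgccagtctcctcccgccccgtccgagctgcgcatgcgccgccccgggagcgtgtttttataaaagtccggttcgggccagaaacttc

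Cxcr4 read 937 and 978 in HeJ air, 1038 and 946 in HeJ ozone, 624 and 661.5 in HeOuJ air, and 617 and 639.8 in HeOuJ ozone. The highest HeOuJ value lay well below the lowest HeJ value, and the log2 ozone effects were 0.05 in HeJ and -0.03 in HeOuJ (SE 0.17 each). The log2 strain difference was -0.58 in air (SE 0.17, adjusted p 0.721 in limma), -0.66 in ozone (SE 0.17, adjusted p 0.107) and -0.62 on average (SE 0.12, unadjusted p 0.00083, adjusted p 0.12). The average passed the threshold, with an adjusted p of 0.0393, when dim probe sets were kept in the test. In air, where the HeOuJ ozone arrays play no part, the fold between strain means was 1.49.

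Cxcl12 was read by 3 probe sets. Probe set 100112_at read 3509.5 and 2838 in HeJ air, 3574 and 3102 in HeJ ozone, 2195 and 2312.5 in HeOuJ air, and 2230.4 and 2515 in HeOuJ ozone. Every HeOuJ value lay below every HeJ value, a mean log2 strain difference of -0.49 (SE 0.11, adjusted p 0.13). The difference was -0.49 in air (SE 0.15, adjusted p 0.722 in limma) and -0.49 in ozone (SE 0.15, adjusted p 0.146). Probe set 162234_f_at had the same sign, with the strains overlapping over both exposures together (-0.32, SE 0.17). Probe set 160511_at read 451 and 377, 370 and 381, 399 and 374, and 635 and 609 in the same order: it was higher in HeOuJ ozone than in any other group, with a log2 ozone effect of 0.69 in HeOuJ (SE 0.25, adjusted p 0.248 in limma) and -0.14 in HeJ (SE 0.25), and an interaction of 0.82 (SE 0.36, adjusted p 0.433). With the 5'/3' covariate the HeOuJ effect was 0.34 (SE 0.54). The probe sets of Cxcl12 therefore opposed each other in the strain difference in ozone, at -0.49, -0.33 and 0.73.

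**Figure D3:**
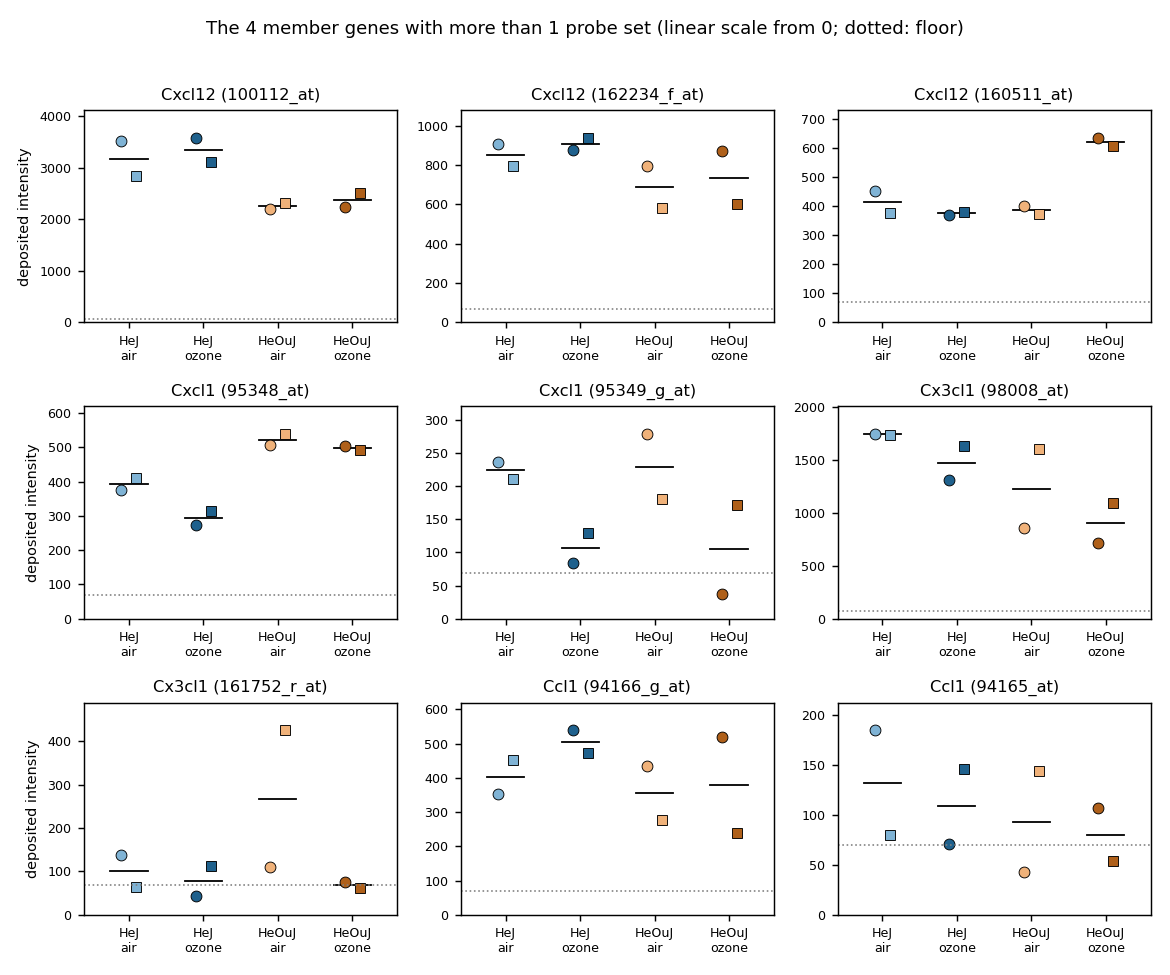
Deposited intensity on the 8 arrays of the probe sets of Cxcl12, Cxcl1, Cx3cl1 and Ccl1, the 4 member genes with more than 1 probe set, with 1 point per array (circles 1a, squares 1b) and a bar at each group mean. Cxcl12 probe set 160511_at is highest in HeOuJ ozone, while 100112_at is lower in both HeOuJ groups.

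Blood endothelial markers were set beside this pair, since endothelium makes Cxcl12. Over both exposures 7 of 8 tested markers were lower in HeOuJ (median -0.27), and in ozone 7 of 8 (median -0.44); in air it was 5 of 8 (median -0.09). Their summed intensity was 50197 to 55408 in HeJ air, 51193 to 52024 in HeJ ozone, 47675 to 55088 in HeOuJ air and 44217 to 45038 in HeOuJ ozone. None was called, and their part in the Cxcl12 and Cxcr4 values was not tested.

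Cx3cl1, a membrane-held ligand of endothelium and epithelium, was read by 98008_at at 1741 and 1734.5 in HeJ air, 1305 and 1633 in HeJ ozone, 852 and 1596 in HeOuJ air, and 717 and 1095 in HeOuJ ozone. The 3 lowest values were on HeOuJ arrays, a mean log2 strain difference of -0.65 (SE 0.22, adjusted p 0.265 in limma), and the HeOuJ air arrays, at 852 and 1596, lay further apart than the strain means. Probe set 161752_r_at, much closer to the floor, gave a log2 ozone effect of -1.58 in HeOuJ (SE 0.62, adjusted p 0.272), where HeOuJ air array 1b read 425 and 1a 110.3. Its receptor Cx3cr1, carried by monocytes and natural killer cells, read between 515 and 637 on 7 arrays and 191 on HeOuJ ozone array 1a; the log2 ozone effect in HeOuJ was -0.87 (SE 0.47). Xcl1, a ligand of cytotoxic lymphocytes for Xcr1 on dendritic cells, averaged a log2 strain difference of -0.79 (SE 0.35, adjusted p 0.381), and Xcr1 read between 503 and 663 with no separation of strains.

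Among the CC receptors, Ccr2 had the smallest p for the strain difference in ozone and Ccr7 for the ozone effect in HeOuJ. Ccr2, which brings monocytes out of marrow, read 491 and 845 in HeJ air, 939.7 and 907 in HeJ ozone, 469.5 and 481 in HeOuJ air, and 474 and 367 in HeOuJ ozone. Every HeOuJ array lay below every HeJ array, though HeJ air array 1a was only just above the highest HeOuJ value. The log2 strain difference was -0.44 in air (SE 0.29, adjusted p 0.969), -1.15 in ozone (SE 0.29, unadjusted p 0.00382, adjusted p 0.0992 in limma) and -0.79 on average (SE 0.21, adjusted p 0.172). In ozone it was -0.17 (SE 0.88) with a 5'/3' covariate, and it passed, with an adjusted p of 0.0451, when only the brighter probe sets were tested.

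Ccr7, the receptor that takes dendritic cells and lymphocytes to lymph nodes, read 145 and 101 in HeJ air, 104 and 131 in HeJ ozone, 83.4 and 83.3 in HeOuJ air, and 347 and 167 in HeOuJ ozone. The HeOuJ ozone arrays were the highest of the 8, but far from each other. The log2 ozone effect in HeOuJ was 1.53 (SE 0.42, adjusted p 0.149 in limma) and -0.05 in HeJ (SE 0.42), and the interaction was 1.58 (SE 0.60, adjusted p 0.386), the smallest p of any member in that comparison. Without HeOuJ ozone array 1a the effect was 1.00 and the interaction 1.05, and with a 5'/3' covariate 0.56 (SE 0.88) and 0.78 (SE 0.87). Dendritic markers, of which Ccr7 is 1 of 9 tested, were 4 higher and 5 lower in HeOuJ ozone (median -0.02).

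Ccr1, a receptor of Ccl3, Ccl5, Ccl6 and Ccl9, ranged from 196 to 314 and Ccr3, the eosinophil receptor, from 75.1 to 173, and all groups overlapped. Ccr4 ranged from 40 to 96.8. Ccr6, the receptor of Ccl20, could not be compared, since the arrays of a group differed by 3-fold or more: 299 and 92.6, 57.3 and 364.5, 179 and 635, and 91.4 and 469 in HeJ air, HeJ ozone, HeOuJ air and HeOuJ ozone.

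Of the atypical receptors, Ackr2, a scavenger of inflammatory CC ligands on lymphatic cells, read 971 and 810 in HeJ air, 805 and 902 in HeJ ozone, 1489 and 981 in HeOuJ air, and 1248 and 816 in HeOuJ ozone, with a log2 strain difference of 0.45 in air (SE 0.27, adjusted p 0.966). Ackr3, a scavenger of Cxcl12, stayed between 585 and 845, with log2 strain differences of 0.15 at each exposure (SE 0.24 each). Ackr4, which clears homeostatic CC ligands, stayed between 283 and 492, with both HeJ ozone arrays above both HeJ air arrays (log2 0.18, SE 0.31). Of 3 tested markers of lymphatic endothelium, 1 was higher and 2 lower in HeOuJ ozone than in HeOuJ air. Lyve1 was called lower (-1.17, SE 0.14, adjusted p 0.0288 in limma), and Flt4 was lower without a call (-1.32, SE 0.27, adjusted p 0.0744). In HeJ ozone 1 was higher and 2 lower, with Lyve1 at -0.54 (SE 0.14) and none called. Ackr2 had an ozone effect of -0.26 (SE 0.27) in HeOuJ, and the part of lymphatic cells in the Ackr2 values was not tested.

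**Figure D4:**
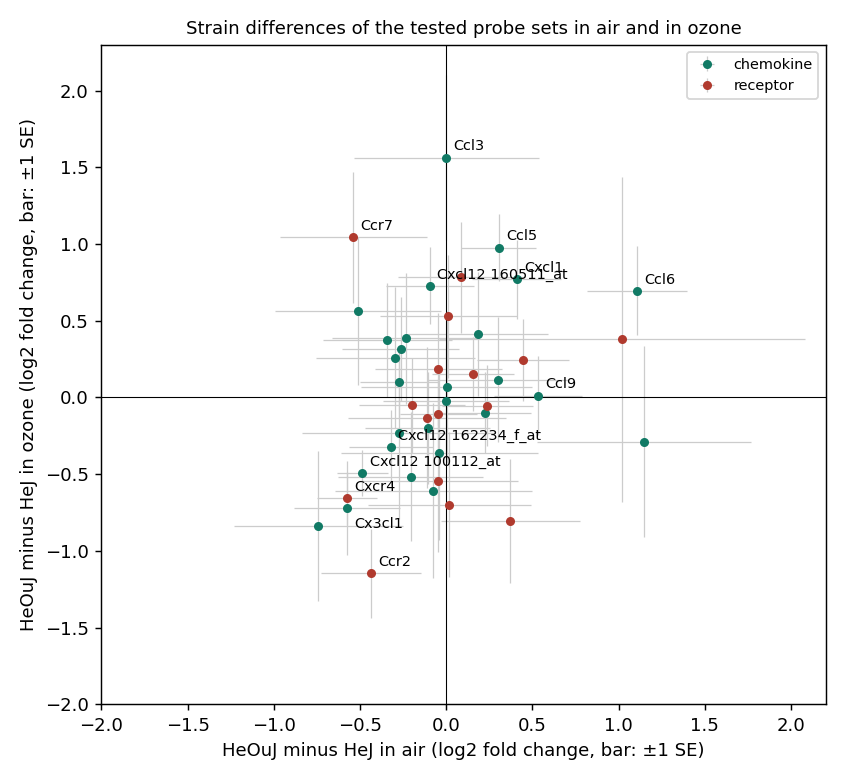
Log2 strain difference, HeOuJ minus HeJ, of the 43 tested member probe sets in air (horizontal axis) and in ozone (vertical axis), with error bars of 1 SE. Cxcr4 and Cxcl12 probe set 100112_at lie below 0 on both axes and Ccl6 above 0 on both, while Ccl5, Ccl3 and Ccr2 lie far from 0 in ozone and closer to it in air.

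The genes that act with chemokines were followed as lists. Of 26 tested genes of chemokine signalling, which couple the receptors to migration, 10 were higher and 16 lower in HeJ ozone and 16 higher and 10 lower in HeOuJ ozone, with medians of -0.08 and 0.06, and none was called in any comparison. Of 16 tested genes that cut chemokines or present them on cell surfaces, 10 were higher and 6 lower in HeJ ozone and 6 higher and 10 lower in HeOuJ ozone, and none was called. The last list held cytokines, receptors and factors that switch chemokine genes on. It also held genes that restrain this, such as Il1rn, so its counts mix both kinds. Of its 28 tested genes, 8 were higher and 20 lower in HeJ ozone (median -0.07) and 21 higher and 7 lower in HeOuJ ozone (median 0.16). 1 was called, in the strain difference in ozone.

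That gene was Tnf, an early macrophage cytokine. It read 63.8 and 55.9 in HeJ air, 51.3 and 57.1 in HeJ ozone, 103 and 73.4 in HeOuJ air, and 231 and 247 in HeOuJ ozone. Both HeJ groups were at the floor, so between these arrays HeOuJ in ozone was at least 3.43-fold above HeJ. The estimate was log2 1.78 (SE 0.30, 95% interval 1.09 to 2.46, adjusted p 0.0479 in limma). The call was lost in 16 of 19 alternatives, over which the log2 estimate ranged from 0.08 to 2.14. With each array left out in turn the difference stayed at 1.73 to 1.83 and the adjusted p rose to 0.06 to 0.357, and it was lost with a 5'/3' covariate too (1.30, SE 0.99, adjusted p 0.983). The log2 ozone effect of Tnf in HeOuJ was 1.46 (SE 0.30, adjusted p 0.0781). Il1b, another inducer, read 374 and 321 in HeJ air, 139 and 229.6 in HeJ ozone, 469.8 and 328 in HeOuJ air, and 176 and 222 in HeOuJ ozone; each ozone array was below each air array, with a mean log2 effect of -0.97 (SE 0.28, adjusted p 0.358).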

How the data were processed

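The authors deposited linear intensities, a single value for each probe set on each array. Their 2% trimmed means lay between 800.39 and 800.41 on every array, so the deposited intensities had been scaled; the software is not given in the sources used. After 66 controls were removed, values of 12422 probe sets were raised to a floor at the 20th percentile and log2 was taken. The 10953 probe sets that exceeded it on 2 or more arrays entered limma 3.58.1 (R 4.3.3; eBayes with trend) as a model of 4 group means over all 8 arrays, with 4 residual and 4.54 prior degrees of freedom and Benjamini-Hochberg adjustment at 0.05. Differences are HeOuJ minus HeJ or ozone minus air; the interaction is the HeOuJ minus the HeJ ozone effect. Standard errors are the moderated ones. The precision is limited by the number of arrays.

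Symbols came from the array annotation of 2016, and all 47 matched RefSeq. Members and lists were chosen with earlier results of these data known. All members may be named by role; in each comparison the 4 of smallest p get full statistics. Alternatives changed the scaling, the floor, the filter, the intensity trend, the arrays fitted, the replicate letters as a block, array weights, a 5'/3' covariate and the leaving out of arrays. Motifs were searched on both strands of the 250 bases before each start. Plots used Python 3.11.15, matplotlib 3.10.9 and pandas 2.3.3.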

Additional observations from a re-analysis of the deposited data

How the results depend on the processing

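No member estimate changed direction in any alternative, among those with full statistics. The count of members past the threshold was 0 in all 7 comparisons and 0 to 0 with each array left out in turn. It became 1 for the mean strain difference without the filter on dim probe sets (Cxcr4), and, with only the probe sets above the median tested, 1 for the ozone effect in HeOuJ (Ccl9) and 2 for the strain difference in ozone (Ccl5 and Ccr2); fewer probe sets were then tested, 17 members among them. With the replicate block, 0 members passed in every comparison. It raised the calls over all probe sets from 107 to 185 for the strain difference in ozone and from 17 to 29 for the mean strain difference; the labels do not say what the letters mean, and the deviations of same-lettered arrays correlated at -0.01 to 0.14, over 0.1 in 3 of 6 pairs of groups, so pairing was not assumed. All 8 arrays correlated best with an array of their own letter, but the deviations of 1a and 1b from their group mean mirror each other. Both arrays of a group therefore always give the same answer. For HeOuJ ozone the highest of these correlations was 0.04. It is a weak hint from the data and not the design.

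The calls over all probe sets moved more: 50 in HeOuJ ozone became 0 without an intensity trend, 16 with medians set to a common level and 172 with the brighter probe sets, and 107 for the strain difference in ozone became 0, 18 and 282. Leaving out an array left 0 to 22 and 0 to 31. Over the settings that kept all arrays, calls ranged from 0 to 8 (0 as reported) for ozone in HeJ, 0 to 10 (0) for the interaction, 0 to 14 (2) for mean ozone, 0 to 11 (5) for strain in air and 0 to 40 (17) for mean strain. The 5'/3' covariate gave 0 calls in both and shifted the median of all probe sets in that strain difference from 0.02 to -0.11. An alternative added after seeing the data, without both HeOuJ ozone arrays, gave 0 members in the HeJ ozone effect and in the strain difference in air. The fit on only the arrays of the groups compared could be run for the 4 comparisons of 2 groups. The number of arrays, 2 a group, limits every value.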

Other observations

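Several chemokine relatives lie outside the rule, by symbol or because their probe sets match several genes. The probe set of the Ccl21 genes, lymphatic ligands of Ccr7, read between 2188 and 3026 on the 8 arrays, and that of Ccl19, the other Ccr7 ligand, between 749.9 and 1063. Pf4, a platelet chemokine, read 157 and 32.7 in HeJ air, 183 and 83.5 in HeJ ozone, 28.8 and 112 in HeOuJ air, and 332 and 98.6 in HeOuJ ozone. Ccrl2, a non-signalling chemerin receptor, read between 477 and 1053, and Ccr1l1, a relative of Ccr1, between 120 and 352. The 2 Ccl27 probe sets reached at most 232 and 97.7.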
